A study of Mus musculus with 2 samples.

Results

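The values of 10 imprinted genes were read in nuclei of the mouse retina at postnatal day 21 (P21). The genes were Meg3, Rian, Mirg, Peg3, Snrpn, Ndn, Impact, Kcnq1ot1, Plagl1 and Grb10, taken by symbol, and all 10 were among the 32227 genes of the deposited table. Single-nucleus RNA-sequencing (snRNA-seq) was done on whole retinas of C57 BL/6J mice with a 3′ kit that captures nuclei in particle-templated partitions. The Cre- library came from mice without Cre that the labels give as WT. The Tet tcKO library came from mice with loxP sites on both copies of Tet1, Tet2 and Tet3 and the Chx10-Cre-GFP transgene, which drives Cre in retinal progenitor cells and so leaves cells of other origin, such as microglia and vessels, outside the deletion. According to the methods of the study, the Tet tcKO mice carried the transgene on both alleles to limit mosaic recombination, and nuclei of 2 dissociation pools entered each reaction. The deposited tables do not give the pool of a nucleus, so each genotype is 1 library with no replicate, and the differences given here have no test between genotypes.

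Imprinted genes are transcribed mainly from the copy inherited from 1 parent, and this choice rests on DNA methylation that differs between the maternal and the paternal copy at control regions. TET1, TET2 and TET3 oxidise 5-methylcytosine, a step towards its loss. Many imprinted genes lie in clusters that share a control region, encode growth regulators or long noncoding RNAs, and stay active in neurons. The deposited counts do not separate the parental copies, so total RNA of each gene was measured here and imprinting itself was not.

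The Cre- library held 7357 nuclei and 11510585 unique molecular identifiers (UMIs, each 1 captured RNA molecule), against 6766 nuclei and 16590747 UMIs in the Tet tcKO library. Median depth was 1107 UMIs per nucleus for Cre- against 1836 for Tet tcKO. The 13 mitochondrially encoded genes took 5.47% of the UMIs in Cre- and 1.76% in Tet tcKO. Only 1 barcode occurred in both libraries. A level is given in CPM, the UMIs of a gene per 1000000 UMIs of all genes in the same nuclei. UMIs of the targeted genes are counted per whole gene and can lie outside the deleted exons, so they do not check the deletion: Tet1 was 50.2 CPM in Cre- and 61.2 in Tet tcKO, Tet2 105 and 139, and Tet3 180.4 and 174. The 10 imprinted genes together held 0.957% of UMIs in Cre- and 1.05% in Tet tcKO. A log2 ratio is Tet tcKO over Cre-. Intervals are exact at 95% and say nothing of the spread between animals, preparations or nuclei, since they reflect counting error only. They treat each UMI as independent, although a nucleus can hold many UMIs of 1 gene (up to 364 of Meg3 in Cre-).

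The genes lie at 7 places in the genome, given here in GRCm39 with GENCODE vM39 gene bounds, which held 31681 of the 32227 gene identifiers. On chromosome 12, Meg3 (109506877-109538165), Rian (109570242-109628150) and Mirg (109696198-109715898) are noncoding RNAs that follow each other on the plus strand, with 32076 bases between Meg3 and Rian and 68047 between Rian and Mirg. They are maternally expressed in the mouse. The annotation places 2 miRNA genes inside Meg3, 4 miRNA and 13 snoRNA genes inside Rian, and 14 miRNA genes inside Mirg on the same strand. On chromosome 7, Peg3 (6706882-6733468, minus strand) encodes a zinc finger protein, Snrpn (59630427-59820763, minus strand) encodes the spliceosome protein SmN, and Ndn (61995473-62000010, plus strand) encodes necdin, a MAGE family protein of postmitotic neurons. Kcnq1ot1 (142731402-142850327, minus strand) is a noncoding RNA antisense to Kcnq1 on the same chromosome and is known for silencing its neighbours in cis. Plagl1 (chromosome 10, 12936248-13007438, plus strand) encodes a zinc finger transcription factor, and Grb10 (chromosome 11, 11880498-11988683, minus strand) encodes an adaptor that dampens insulin and IGF receptor signalling.

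The miRNAs inside the chromosome 12 RNAs were not in the count table, so the miRNAs themselves were not measured here. RefSeq (GRCm38.p6) gave 26 mature sequences for the miRNA genes inside Mirg, 6 for Rian and 3 for Meg3. A few are shown because Mirg, their host, had fewer UMIs per Rian UMI over all Tet tcKO nuclei, with the seed (bases 2 to 8) in capitals. The first pair, both from inside Mirg, was the only one of these 35 mature miRNAs to share a seed. The next 3 are also from inside Mirg, then 1 from Rian and 1 from Meg3.
miR-453: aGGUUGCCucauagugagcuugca
miR-496a-5p: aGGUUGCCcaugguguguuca
miR-382-5p: gAAGUUGUucgugguggauucg
miR-134-5p: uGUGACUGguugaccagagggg
miR-410-3p: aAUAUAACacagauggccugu
miR-370-3p: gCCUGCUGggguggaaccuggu
miR-770-3p: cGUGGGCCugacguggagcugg

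Sequence before the gene starts is shown for Ndn and Plagl1, the members that were higher in Tet tcKO, and for Meg3, the most counted. The 250 bases before the RefSeq start are given in GRCm38.p6, which is not the build of the gene bounds above, with CpG dinucleotides, the main site of methylation in mammals, in capitals. Plagl1 is chr10:13090582-13090831 (plus strand, 19 CpGs), Ndn is chr7:62348027-62348276 (plus strand, 5 CpGs) and Meg3 is chr12:109540746-109540995 (plus strand, 10 CpGs).
Plagl1: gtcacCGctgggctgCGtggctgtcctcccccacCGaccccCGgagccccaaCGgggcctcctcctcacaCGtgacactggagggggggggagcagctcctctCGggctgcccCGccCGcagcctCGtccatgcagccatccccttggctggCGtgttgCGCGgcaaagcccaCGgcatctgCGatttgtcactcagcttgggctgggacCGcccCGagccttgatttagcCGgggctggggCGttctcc
Ndn: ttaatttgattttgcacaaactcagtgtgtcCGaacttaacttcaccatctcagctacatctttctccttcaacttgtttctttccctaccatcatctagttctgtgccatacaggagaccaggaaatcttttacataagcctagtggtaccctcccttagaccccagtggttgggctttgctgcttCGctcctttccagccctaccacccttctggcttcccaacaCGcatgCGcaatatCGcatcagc
Meg3: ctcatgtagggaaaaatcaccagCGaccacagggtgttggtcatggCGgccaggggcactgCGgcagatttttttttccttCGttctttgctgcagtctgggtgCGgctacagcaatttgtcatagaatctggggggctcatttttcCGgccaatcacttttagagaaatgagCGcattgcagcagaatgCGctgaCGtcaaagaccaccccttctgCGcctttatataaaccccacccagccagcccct

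RefSeq gave 14 promoter entries for 9 of the genes, each from 250 bases before to 50 after a start. The letters TGCCGC, the hexamer that the imprint-protecting factor ZFP57 recognises, were in 4 of the 14 on either strand (Meg3, Snrpn, Plagl1 and Grb10, 1 entry each), and in 11.6% of all 32851 promoters of this length. The CpG count was 26 for Plagl1 and 45 for 1 Grb10 entry, against a median of 7 over all promoters. The letters CGCATGCG, which are their own reverse complement and form the core of the site that the factor NRF1 binds, stood in the Ndn entry and in 4 of 4 Snrpn entries, in none of the other members' entries, and in 1.87% of all promoters. This motif was picked after the sequences were read, and the first 3 Snrpn entries are near copies of each other. The windows around it are shown with the 8 letters in capitals, because Ndn and Snrpn belong to the same imprinted region and differed in their ratios.
Ndn (chr7:62348243-62348272, plus strand): gcttcccaacaCGCATGCGcaatatcgcat
Snrpn (chr7:60450222-60450251, minus strand): gcaaacatccaCGCATGCGtgattggaagg
Snrpn (chr7:60048031-60048060, minus strand): gcaaacatgcaCGCATGCGtcgttgaaggt

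Cell classes are the authors' annotation. The genotypes were compared within a class only if, in each of its clusters, the 10 leading genes held at least as many markers of that class as of any other. Retinal ganglion cells (RGCs, 567 and 704 nuclei in Cre- and Tet tcKO), amacrine cells (403 and 1043) and horizontal cells passed. A cluster with no marker of any class among its 10 leading genes also passed. Amacrine cluster 27 passed in this way, so its identity was not verified by the check. Rod, cone, bipolar and Müller glia classes failed this check, and their levels are set side by side with no ratio. The nuclei of a class sat largely in different clusters in each library. Of the RGCs, 394 were in cluster 8 in Cre- and 29 in Tet tcKO, with 4 and 217 in cluster 15, 58 and 273 in cluster 31 and 111 and 185 in cluster 2. Of the amacrine cells, 256 were in cluster 27 in Cre- and 21 in Tet tcKO, with 14 and 357 in cluster 12. A class ratio thus compares different mixtures of clusters, and values within clusters that hold at least 30 nuclei of each library are given beside it. Horizontal cells had 90 and 37 nuclei, too few for a comparison. The annotation gives 5214 rods and 265 cones in Cre-, and 6 rods and 3225 cones in Tet tcKO.

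The chromosome 12 RNAs had RGCs at the top in both libraries. In Cre-, Meg3 was 28475 CPM in RGCs, 11265 in amacrine cells, 5919 in bipolar cells, 4724 in rods, 3692 in cones, 3651 in horizontal cells and 2916 in Müller glia. Intervals of neighbours in that order did not overlap except between cones and horizontal cells. Meg3 was 6.03-fold (5.94 to 6.12) higher in RGCs than in rods. In Tet tcKO the top of the order was the same, with 23139.9 CPM in RGCs, 12429.6 in amacrine cells and 5625 in nuclei annotated bipolar cells. In the latter the summed cone markers were at 6291 CPM and the bipolar markers at 3649, so their label is weak. Their 6 clusters ran from 2383 to 7096 CPM of Meg3, and the 8 Tet tcKO cone clusters from 3292 to 5894. The remaining Tet tcKO classes were close together, at 4865 CPM in Müller glia, 4528 in cones and 4503 in horizontal cells, and their intervals overlapped. Each of the 3 Cre- RGC clusters with at least 30 nuclei, at 27357 to 30271 CPM, lay above each of the 14 rod clusters, at 4154 to 5904.

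Rian and Mirg had RGCs and amacrine cells at the top as well. Rian was 1226 CPM in RGCs, 523 in amacrine cells and 262 in rods in Cre-, and 1170.2, 651 and 333 in RGCs, amacrine cells and cones in Tet tcKO. Mirg was 494 CPM in RGCs, 199 in amacrine cells and 98.3 in rods in Cre-, and 351, 177 and 83.6 in RGCs, amacrine cells and cones in Tet tcKO. Over 51 groups (a cluster in 1 library, at least 30 nuclei), Pearson's r of log2 levels was 0.94 between Meg3 and Rian, 0.93 between Meg3 and Mirg and 0.87 between Rian and Mirg. These r values describe groups that share libraries and class makeup, and they carry no test. Thinned to 500 UMIs per nucleus, Meg3 was found in 100% of RGCs and 91.0% of rods in Cre-. Without thinning it was found in 98.9% of those rods (median depth 1026 UMIs, against 1601 in RGCs), so presence was close to saturated. Among Cre- classes, the lowest thinned share was 75.7%, in Müller glia. The summed level of 13 RGC markers was 612 CPM in Cre- rods and 2035 in Cre- RGCs, and all 13 were found in both. The part of RNA from other cells in the rod values was not tested.

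**Figure D1:**
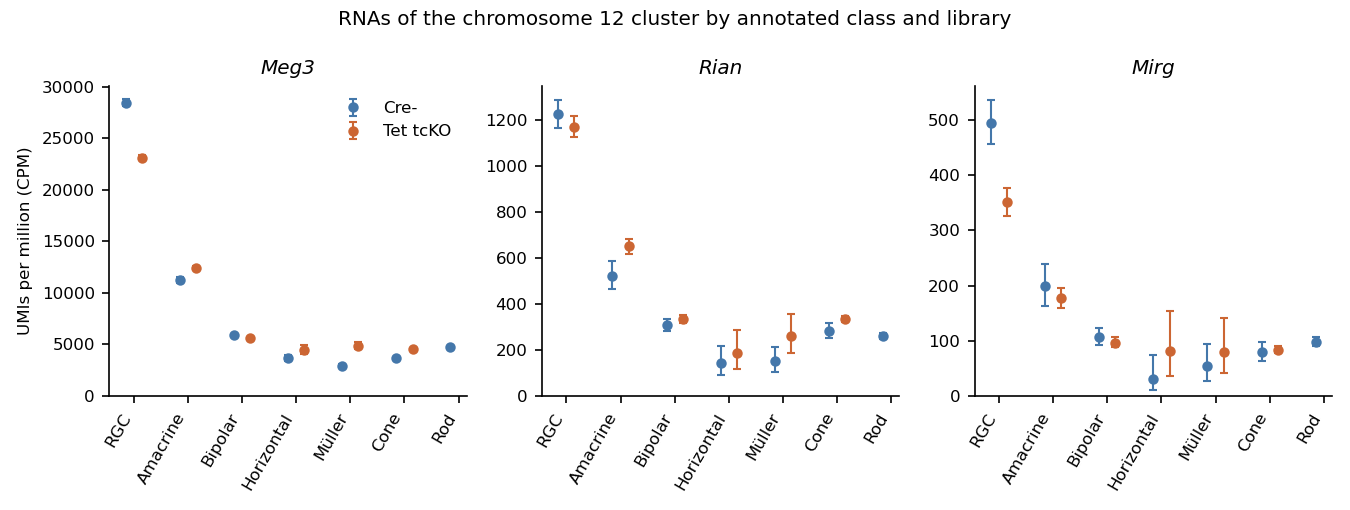
Levels of Meg3, Rian and Mirg (y axis, CPM, from 0) in each annotated class (x axis) for the Cre- and Tet tcKO libraries, 1 library each. Points are summed levels and bars exact 95% Poisson intervals (counting error only). Tet tcKO rods (6 nuclei) are not drawn. RGCs are highest for all 3 RNAs in both libraries, and Tet tcKO RGCs lie lower than Cre- RGCs for Meg3 and Mirg.

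Peg3 was also highest in RGCs. Snrpn and Kcnq1ot1 had their highest values there too, but with intervals that overlapped those of another class. Peg3 was 788 CPM in RGCs, 426 in amacrine cells, 312 in bipolar cells and 226 in rods in Cre-, and 670.4, 374, 288 and 221 in RGCs, amacrine cells, bipolar cells and cones in Tet tcKO. Snrpn was 476 CPM in RGCs and 455 in horizontal cells in Cre-, which did not differ beyond their intervals, and 185 in rods. The same pair led in Tet tcKO, at 453 and 414 CPM, with 163 in cones. Snrpn was thus the member for which horizontal cells stood out, at 2.45-fold (1.91 to 3.11) the rod level in Cre- and 2.54-fold (1.85 to 3.41) the cone level in Tet tcKO. Kcnq1ot1 spread more evenly, at 1159.9 CPM in RGCs, 1020.5 in amacrine cells, 913 in bipolar cells, 779 in Müller glia and 549.6 in rods in Cre-. Tet tcKO values were 1015, 988, 893 and 744 for the first 4 of these classes and 432 for cones. The Kcnq1ot1 intervals of RGCs and amacrine cells overlapped in both libraries.

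Impact, a regulator of the GCN2 kinase that answers amino acid shortage, lies on chromosome 18 (13088909-13126012, plus strand). It ran from 73.5 CPM in rods to 106 in amacrine cells in Cre-. In Tet tcKO, leaving out the 6 rods, it ran from 33.5 in Müller glia (5 UMIs) to 108 in amacrine cells.

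Plagl1 and Grb10 had Müller glia at the top in Tet tcKO. In Cre- the highest Plagl1 value was also there, but its interval (9.91 to 58.8) overlapped those of all other classes except rods. Müller cluster 30 held 0 Plagl1 UMIs in Cre- (43 nuclei). In Tet tcKO the Plagl1 interval of Müller glia (27.6 to 114) overlapped that of horizontal cells (0 to 33.2), which had 0 UMIs. Plagl1 was 27.0 CPM in Cre- Müller glia (6 UMIs) and 60.3 in Tet tcKO Müller glia (9 UMIs). All other classes were at 5.37 to 8.94 CPM in Cre-, and those with a UMI were at 8.91 to 19.6 in Tet tcKO. Grb10 was 106 CPM in RGCs, 94.5 in Müller glia, 94 in cones, 87.7 in amacrine cells and 70.3 in rods in Cre-. In Tet tcKO it was 322 CPM in Müller glia, then 149 in RGCs, 133 in amacrine cells, 102 in cones and 90 in bipolar cells. The Müller marker list summed to 3159 CPM in Cre- and 3371 in Tet tcKO Müller glia, with all 12 markers found, while the rod list summed to 6701 and 1984 there. The Grb10 values of Müller glia rested on 21 UMIs in Cre- and 48 in Tet tcKO.

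Ndn was the 1 member with photoreceptors at the top in Tet tcKO. It was 49.4 CPM in Tet tcKO cones and at most 26.8 in any other Tet tcKO class. In Cre- it was 27.1 CPM in cones, 25.3 in horizontal cells (4 UMIs) and 20.3 in rods, and from 7.16 to 15.3 in the other classes. The 14 Cre- rod clusters ran from 10.5 to 37.7 CPM and the 8 Tet tcKO cone clusters from 34.2 to 68.5, so these ranges overlapped at their ends.

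**Figure D2:**
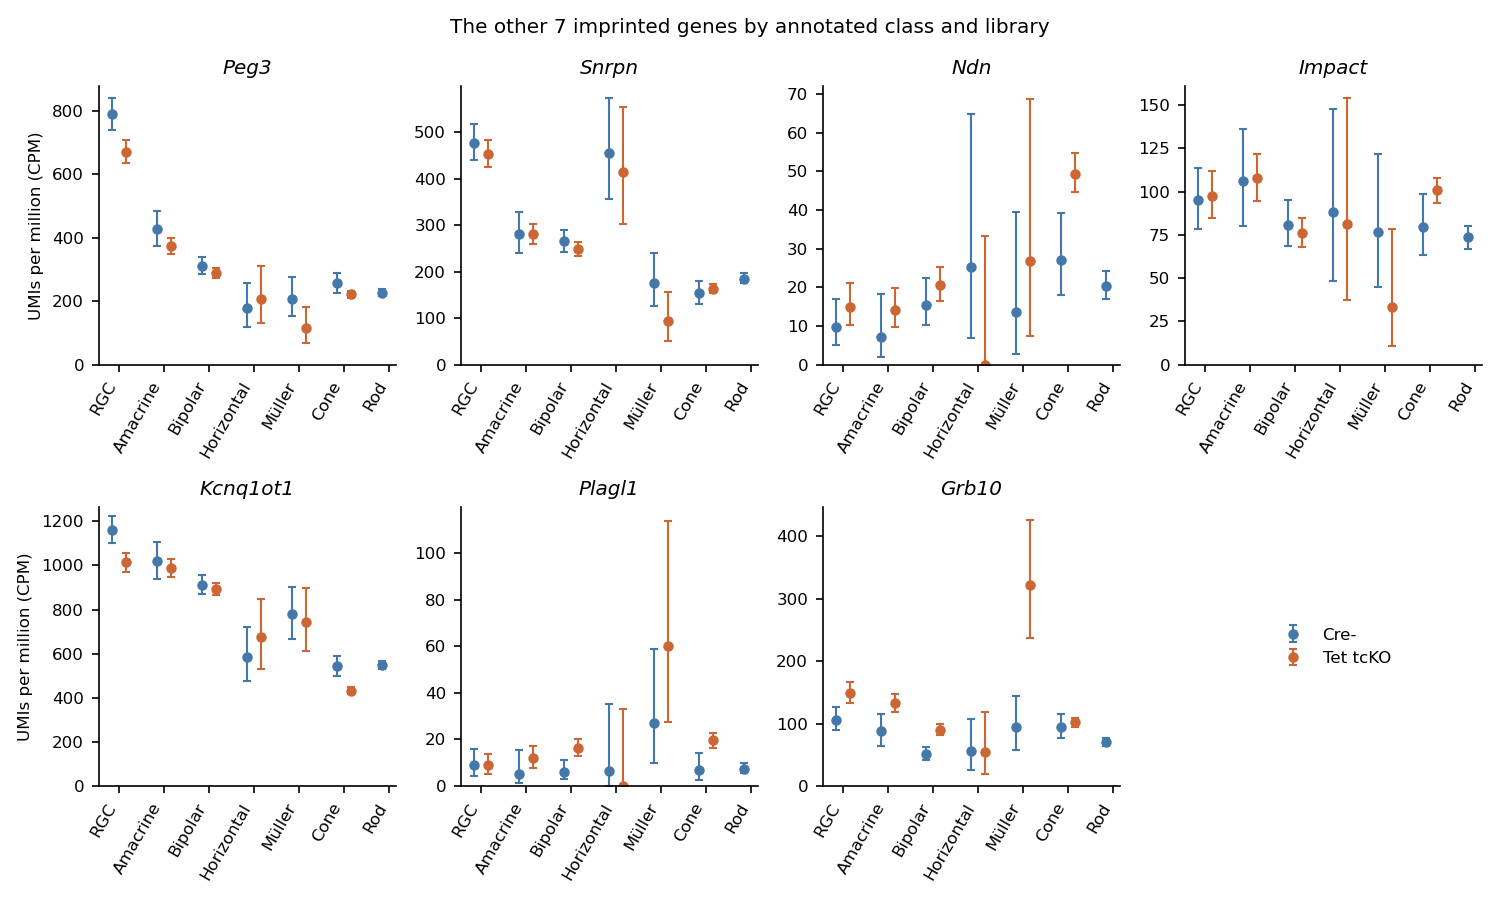
Levels of the other 7 members (y axis, CPM, from 0, a scale for each gene) in each annotated class (x axis) for the Cre- and Tet tcKO libraries. Points are summed levels and bars exact 95% Poisson intervals (counting error only). Tet tcKO rods are not drawn. Peg3 is highest in RGCs, Ndn in Tet tcKO cones (49.4 CPM), and Grb10 in Tet tcKO Müller glia (322 CPM). Snrpn and Kcnq1ot1 peak in RGCs, with intervals that overlap those of horizontal cells (Snrpn) and amacrine cells (Kcnq1ot1).

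Over all nuclei, Ndn and Plagl1 were the members at 1.5-fold or more in Tet tcKO, and no member was that much lower. This is 2 of 10 higher, where 12.9% of the 11158 genes at 10 CPM or more were that much higher and 6.93% that much lower. Plagl1 alone was at 2-fold or more, against 3.18% of genes. It was under 10 CPM in Cre-, so it passed the filter only through Tet tcKO, where it was higher. The median log2 ratio was 0.19 over the members and 0.15 over all genes, so the members as a list lay near the rest.

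Ndn was 18.3 CPM in Cre- (211 UMIs) and 31.7 in Tet tcKO (526 UMIs), with a log2 ratio of 0.79 (0.56 to 1.03). Plagl1 was 7.56 CPM (87 UMIs) and 16.5 (273 UMIs), a log2 ratio of 1.12 (0.77 to 1.49). Both were spread over many nuclei. Ndn UMIs came from 205 Cre- and 491 Tet tcKO nuclei with at most 3 in a nucleus, and Plagl1 UMIs from 84 and 255 nuclei, also with at most 3. Grb10 was just under the 1.5-fold mark, with 74.5 CPM in Cre-, 111 in Tet tcKO and a log2 ratio of 0.57 (0.45 to 0.69).

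The remaining members had log2 ratios from -0.09 (Mirg) to 0.34 (Rian), against 0.15 for the median gene. Meg3 was 7621 CPM in Cre- and 8332 in Tet tcKO, with a log2 ratio of 0.13 (0.12 to 0.14). Rian was 383 and 484 CPM, at 0.34 (0.28 to 0.39), and Impact 79.3 and 93.8, at 0.24 (0.12 to 0.36). Peg3 (311 and 317 CPM), Snrpn (234 and 241) and Kcnq1ot1 (698 and 713) had log2 ratios of 0.03, 0.04 and 0.03, and these turned to -0.07, -0.06 and -0.07 when the libraries were scaled by edgeR's TMM factors, which lower every ratio by 0.10. Mirg, at 143 and 135 CPM, was the lowest member, with a log2 ratio of -0.09 (-0.18 to 0.00). These values mix classes whose shares differed between the libraries: RGCs gave 39.9% of Meg3 UMIs in Cre- and 35.7% in Tet tcKO, and amacrine cells 7.17% and 21.1%. With the Cre- class shares applied to both libraries, the Meg3 log2 ratio turned to -0.11, that of Ndn 1.07 and that of Plagl1 1.26.

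In photoreceptors, Ndn and Plagl1 were the members at 1.5-fold or more. Rods and cones gave 76.3% of Ndn UMIs in Cre- and 69.6% in Tet tcKO, and 63.2% and 53.1% of Plagl1 UMIs. This comparison thus shares many UMIs with that over all nuclei and is not a second result. The values over all nuclei likewise set Cre- rods against Tet tcKO cones in large part. Because rods and cones did not pass the marker check, the comparison was limited to clusters annotated rods or cones that passed with rod and cone markers counted as 1 list, a limit set after seeing the data. It left out 41.3% of Cre- and 0.124% of Tet tcKO rod and cone nuclei, and kept 3218 and 3227 nuclei. There 2 of 10 members were higher and 0 lower, against 20.6% of genes higher and 7.78% lower. Plagl1 reached 10 CPM only in Tet tcKO there. The median gene stood at 0.20.

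Ndn was 20.8 CPM in Cre- and 49.4 in Tet tcKO photoreceptor clusters, a log2 ratio of 1.25 (0.94 to 1.57). Plagl1 was 8.0 and 19.6 CPM, at 1.29 (0.79 to 1.82). Impact, at 73.1 and 100.5 CPM, had 0.46 (0.28 to 0.64), and Grb10, at 75.5 and 102 CPM, had 0.44 (0.26 to 0.61). Kcnq1ot1 was the member furthest in the other direction, at 548 and 432 CPM, with -0.34 (-0.42 to -0.27). The Cre- nuclei of this comparison were mostly annotated rods and the Tet tcKO nuclei cones, so genotype and photoreceptor type cannot be told apart. The 265 Cre- nuclei annotated cones had 27.1 CPM of Ndn (18.0 to 39.2), 6.79 of Plagl1 (2.73 to 14.0), 79.5 of Impact (63.2 to 98.7), 94 of Grb10 (76.3 to 115) and 544 of Kcnq1ot1 (499.8 to 591). Of these, the Ndn, Plagl1 and Kcnq1ot1 intervals did not overlap those of Tet tcKO cones (44.5 to 54.8, 16.5 to 23.0 and 417 to 447). In those Cre- cones the summed rod markers were at 14917 CPM and the cone markers at 2072, against 6189.8 and 6505 in Tet tcKO cones, so their label is weak.

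In amacrine cells, 3 members were at 1.5-fold or more higher and 0 lower, against 16.7% of genes higher and 16.7% lower. Grb10 was the one with enough UMIs to read, at 87.7 CPM in Cre- (49 UMIs) and 133 in Tet tcKO (311 UMIs), with a log2 ratio of 0.60 (0.16 to 1.06). Ndn (4 and 33 UMIs) and Plagl1 (3 and 28 UMIs) had intervals that included 0, and both reached 10 CPM only in Tet tcKO. Rian was 523 and 651 CPM, at 0.32 (0.14 to 0.50), while Meg3 was at 0.14 (0.10 to 0.18) and Mirg at -0.17 (-0.47 to 0.15). By cluster, Grb10 was at 0.96 (-0.35 to 2.54) in cluster 13 and 0.19 (-0.94 to 1.56) in cluster 24, each with at least 30 nuclei in both libraries. Meg3 was at 0.48 (0.36 to 0.59) and 0.01 (-0.09 to 0.12) in the same clusters. The summed rod markers in amacrine cells were at 3172 CPM in Cre- and 1347 in Tet tcKO, the cone markers at 845 and 2038, and the amacrine markers at 2827 and 3447. Their part in these ratios was not tested.

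In RGCs, where the chromosome 12 RNAs were highest, Meg3, Mirg, Peg3 and Kcnq1ot1 were lower in Tet tcKO over the class, with intervals under 0, and of these Meg3 was the one with an interval under 0 in both clusters shared by the libraries. Meg3 was 28475 CPM in Cre- and 23139.9 in Tet tcKO, with a log2 ratio of -0.30 (-0.32 to -0.28). Mirg was 494 and 351 CPM, at -0.49 (-0.65 to -0.34), and Peg3 788 and 670.4 CPM, at -0.23 (-0.35 to -0.11). Kcnq1ot1, at 1159.9 and 1015 CPM, had -0.19 (-0.29 to -0.10). Rian, at 1226 and 1170.2 CPM, had -0.07 (-0.16 to 0.03). Grb10 went the other way, at 106 and 149 CPM, with 0.49 (0.19 to 0.79). Under the 1.5-fold rule, 1 of 10 members was higher (Ndn, on 12 and 32 UMIs, 0.62 with an interval of -0.37 to 1.71) and 0 lower, against 11.8% of genes higher and 10.8% lower. Ndn reached 10 CPM only in Tet tcKO, and Plagl1, at 8.94 and 8.91 CPM, was under 10 CPM in both libraries. In both RGC clusters with at least 30 nuclei in each library Meg3 was lower as well, with log2 ratios of -0.20 (-0.23 to -0.17) in cluster 2 and -0.19 (-0.25 to -0.12) in cluster 31, while Grb10 was at 0.03 and 0.11 there. Rian was at -0.11 (-0.24 to 0.03) in cluster 2 and -0.45 (-0.76 to -0.12) in cluster 31, where its interval lay under 0. Mirg was at -0.31 (-0.55 to -0.07) in cluster 2 and -0.02 (-0.56 to 0.55) in cluster 31. Kcnq1ot1 was at -0.17 (-0.33 to -0.01) and 0.00 (-0.31 to 0.33), and Peg3 at -0.02 (-0.20 to 0.17) and 0.35 (-0.07 to 0.80). The lower class values of Mirg, Peg3 and Kcnq1ot1 were therefore not seen in each cluster. The summed RGC markers were at 2035 CPM in Cre- and 2006 in Tet tcKO RGCs, the rod markers at 2449.9 and 1000, and the cone markers at 556 and 1298. Their part was not tested.

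**Figure D3:**
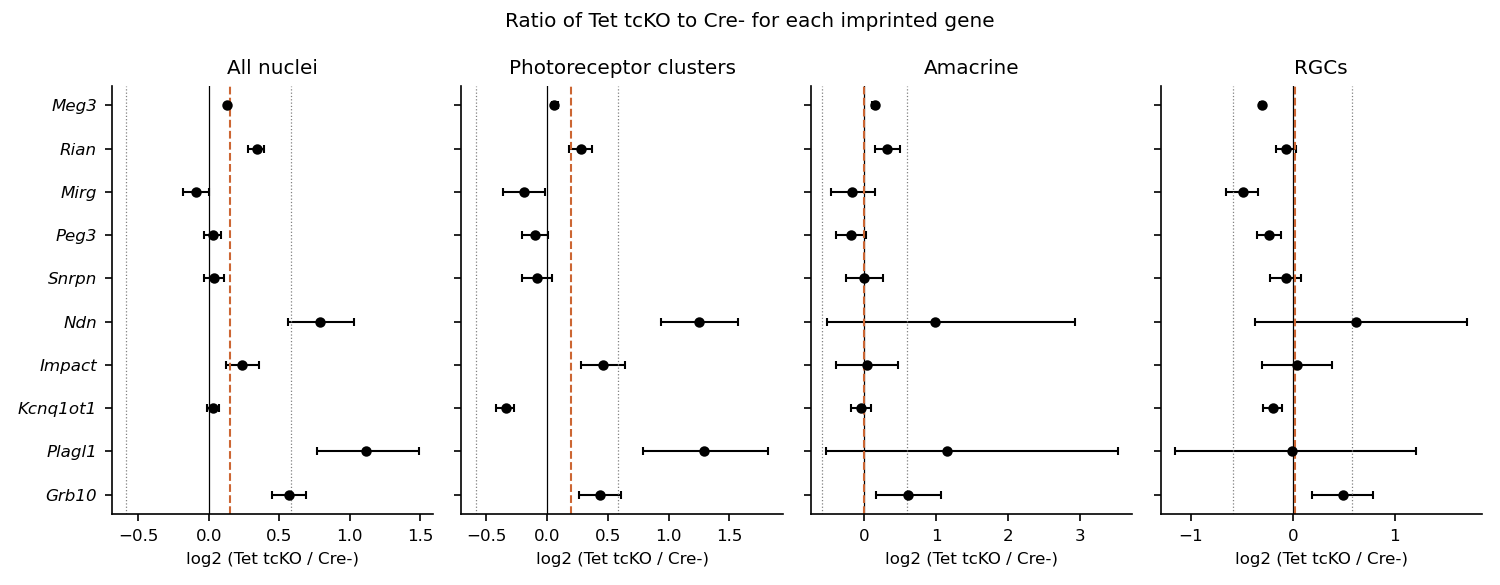
Log2 ratio of Tet tcKO to Cre- (x axis, a scale for each panel) for each member (y axis) over all nuclei, in photoreceptor clusters, in amacrine cells and in RGCs. Points are ratios of summed levels with exact 95% counting intervals, dotted lines mark 1.5-fold, and the dashed line is the median of all genes. Ndn and Plagl1 lie to the right over all nuclei (0.79 and 1.12) and in photoreceptor clusters (1.25 and 1.29), and Meg3 lies left of 0 in RGCs (-0.30).

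The proportions of the chromosome 12 RNAs differed between the libraries over all nuclei and in the class sums, but not in the same direction in each RGC cluster. A proportion needs no scaling to library totals. Per 100 Rian UMIs, Mirg had 37.4 UMIs in Cre- (35.3 to 39.6) and 27.8 in Tet tcKO (26.5 to 29.1), a log2 change of -0.43 (-0.53 to -0.32). The values were 40.3 and 30 in RGCs (-0.43, -0.61 to -0.24), 38.0 and 27.1 in amacrine cells (-0.49, -0.85 to -0.12) and 34.6 and 25.1 in photoreceptor clusters (-0.47, -0.66 to -0.27). Mirg, the miRNA host at the far end of the cluster, was thus lower relative to Rian in these 3 sums. Within clusters the direction was not uniform in RGCs, with 35.2 and 30.5 in cluster 2 (-0.21, -0.48 to 0.07) and 32.7 and 43.8 in cluster 31 (0.42, -0.21 to 1.08). In amacrine cells it was 42.9 and 26.4 in cluster 13 (-0.70, -1.71 to 0.35) and 47.2 and 28.4 in cluster 24 (-0.73, -1.67 to 0.26). All 4 intervals included 0, so the RGC and amacrine changes cannot be told apart from the different mixtures of clusters. In the Cre- library, rods had 37.5 (34.2 to 41.1) and annotated cones 27.9 (21.6 to 35.7), and Tet tcKO cones had 25.1 (22.9 to 27.4), so the interval of the Cre- cones, whose label is weak, overlapped both others. The photoreceptor change cannot be told apart from a difference between rods and cones. Bipolar cells had 34.6 (29.1 to 40.8) and 29.1 (26.0 to 32.4).

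Rian, the snoRNA host, was higher relative to Meg3 in the sums. Per 100 Meg3 UMIs there were 5.03 Rian UMIs in Cre- and 5.81 in Tet tcKO, a log2 change of 0.21 (0.15 to 0.26), with 4.30 and 5.06 in RGCs (0.23, 0.14 to 0.33), 4.64 and 5.24 in amacrine cells (0.18, -0.01 to 0.37) and 6.34 and 7.36 in photoreceptor clusters (0.22, 0.12 to 0.31). Within RGC clusters it was 4.94 and 5.26 in cluster 2 (0.09, -0.05 to 0.23) and 4.41 and 3.69 in cluster 31 (-0.26, -0.58 to 0.07), and the intervals of both amacrine clusters (0.15 and 0.22) also included 0. Annotated cones had the highest values of any class, at 7.72 in Cre- and 7.36 in Tet tcKO. The label of the Cre- cones is weak, with summed rod markers at 14917 CPM and cone markers at 2072. Nuclei hold unspliced RNA, and a 3′ kit can also prime inside introns, so these proportions are of captured UMIs and not of finished transcripts.

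**Figure D4:**
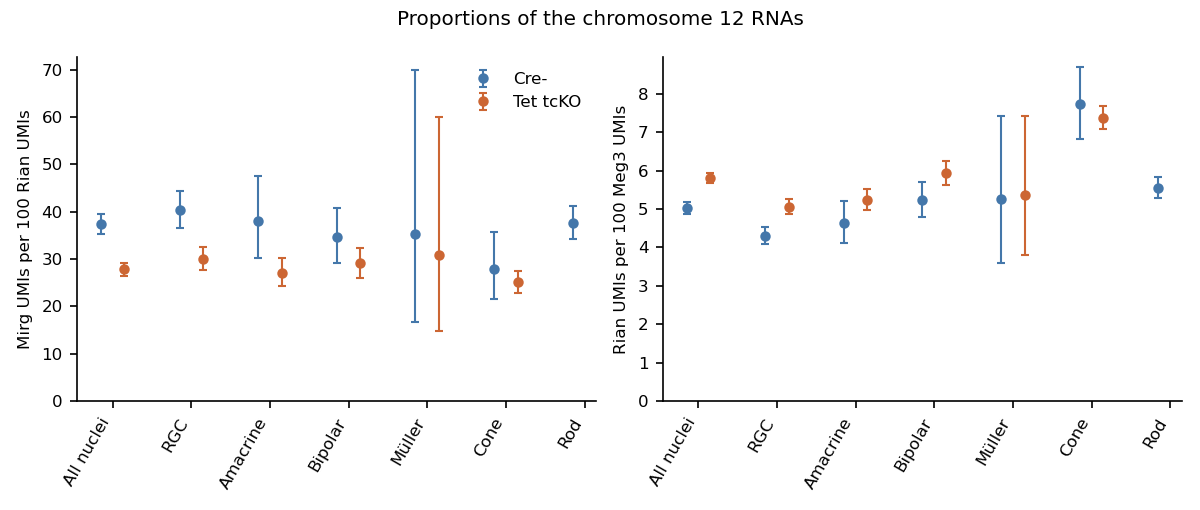
Mirg UMIs per 100 Rian UMIs (left) and Rian UMIs per 100 Meg3 UMIs (right), on axes from 0, over all nuclei and in annotated classes (x axis) for the Cre- and Tet tcKO libraries. Tet tcKO rods and horizontal cells are not drawn. Horizontal cells had 21.7 Mirg per 100 Rian UMIs in Cre- and 42.9 in Tet tcKO, on 5 and 9 Mirg UMIs. Bars are exact 95% intervals for counting error. Mirg per Rian is lower in Tet tcKO over all nuclei and in the sums over RGCs and amacrine cells. The interval of the Cre- cones (27.9), whose label is weak, overlaps those of Tet tcKO cones (25.1) and Cre- rods (37.5).

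The genes whose pattern over classes was most like each member were found by Pearson's r of log2(CPM + 1) over 12 groups (a class in 1 library, at least 50 nuclei) among 6862 genes. The nearest to Meg3 were Plppr1 (r = 0.98), Dync1i1 (0.97) and Zc2hc1a (0.97). Vwa5b2 was nearest to both Rian and Mirg (0.98 each), and Rian was the second gene for Mirg (0.97), the 1 case of a member among another's nearest 3. The nearest to Peg3 was Caln1 (0.98), to Snrpn A230057D06Rik (0.98), to Ndn Itm2b (0.98), to Impact Helq (0.97), to Kcnq1ot1 Ccdc88a (0.94), to Plagl1 Neo1 (0.96) and to Grb10 Fam168a (0.95). These r values are the highest of 6862 genes over only 12 groups, so high values arise by selection, and they carry no test. Some groups held few UMIs, such as 3 of Ndn in Cre- Müller glia and 3 of Plagl1 in Cre- amacrine cells. Over the 51 cluster groups, Ndn and Plagl1 had r = 0.64 with each other, and Ndn had -0.33 with Meg3 and -0.48 with Kcnq1ot1.

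Beyond the members, 59 other genes known as imprinted from other tissues were listed. Whether they are imprinted in the retina was not measured here. All were in the table, 34 of them at 10 CPM or more in a library. Of these, 5 were 1.5-fold or more higher in Tet tcKO and 0 lower, against the 12.9% and 6.93% of all genes, with a median log2 ratio of 0.25. Zdbf2, a paternally expressed gene, was 11.2 CPM in Cre- and 22.3 in Tet tcKO, at 0.99 (0.70 to 1.29). Sgce, which encodes epsilon-sarcoglycan, was 43.8 and 73.4 CPM, at 0.74. Mest was 15.7 and 26.3 CPM, also at 0.74. Cd81, a tetraspanin, was 28.2 and 45.6 CPM, at 0.69, and the potassium channel gene Kcnq1 was 14.2 and 21.7, at 0.62. In photoreceptor clusters, Zdbf2, Sgce, Mest and Cd81 had 1.04, 0.81, 0.93 and 1.23. In RGCs they had 0.45, 0.34, 0.24 and 0.07, with intervals that included 0, while Kcnq1 had 0.88 (0.02 to 1.83, on 15 and 48 UMIs).

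Neighbours of the members in their clusters were read as well. On chromosome 7, Magel2, the gene next to Ndn that also encodes a MAGE protein, rested on 12 and 61 UMIs (1.04 and 3.68 CPM), with a log2 ratio of 1.82 (0.91 to 2.85). Mkrn3, further along, had 40 and 82 UMIs (0.51). Snhg14 was 659 and 807 CPM, at 0.29, Snurf 10.9 and 14.1 CPM, at 0.37, and Ube3a 139 and 151 CPM, at 0.12. Snurf lies inside Snrpn on the same strand, so reads may have been split between them. Usp29, beside Peg3 on the other strand, was 224 and 267 CPM, at 0.25, where Peg3 was at 0.03. Kcnq1 overlaps Kcnq1ot1 on the opposite strand, and whether the counting used strand is not stated in those sources that were read here. In photoreceptor clusters Kcnq1 was at 0.59 (0.19 to 1.01) and Kcnq1ot1 at -0.34. Next to the chromosome 12 RNAs, Dlk1 (2 and 12 UMIs), Rtl1 (10 and 21) and Dio3 (2 and 5) were near the limit of counting.

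Of 11 regulators of imprinted methylation, 6 were at 10 CPM or more, 1 of them 1.5-fold or more higher and 0 lower, against 12.9% and 6.93% of all genes, so the count is near that share. The 1 called was Zfp57, whose protein protects imprints, at 6.95 CPM in Cre- (80 UMIs) and 14.5 in Tet tcKO (241 UMIs), with a log2 ratio of 1.06 (0.69 to 1.45). Zfp57 thus passed the 10 CPM filter only through Tet tcKO, where it was higher. It was at 0.98 (0.44 to 1.55) in photoreceptor clusters and 1.5 (0.30 to 2.99, 6 and 71 UMIs) in amacrine cells. Zfp57 was among the 10 leading genes, ranked by nuclei with the gene, of amacrine cluster 23. That cluster held 26 Cre- and 222 Tet tcKO nuclei, and its part in the amacrine ratio was not tested. In RGCs Zfp57 was at 1.45 with an interval that included 0 (-0.14 to 3.47, 4 and 19 UMIs). Its partner Trim28 was 56.4 and 79.1 CPM, at 0.49, and Zfp445, a related zinc finger gene, was 263 and 313, at 0.25. Ctcf, which encodes an insulator protein of imprinted loci, was 145 and 101 CPM, at -0.52. The methyltransferase genes Dnmt1 (58.1 and 53.4 CPM, -0.12) and Dnmt3a (461 and 495 CPM, 0.10) lay near 0. Dnmt3b (7.47 and 8.98 CPM), Dnmt3l (0.348 and 0.241), Uhrf1 (0.695 and 1.21), Dppa3 (1.22 and 1.51) and Ctcfl (2.09 and 1.45) were under 10 CPM.

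**Figure D5:**
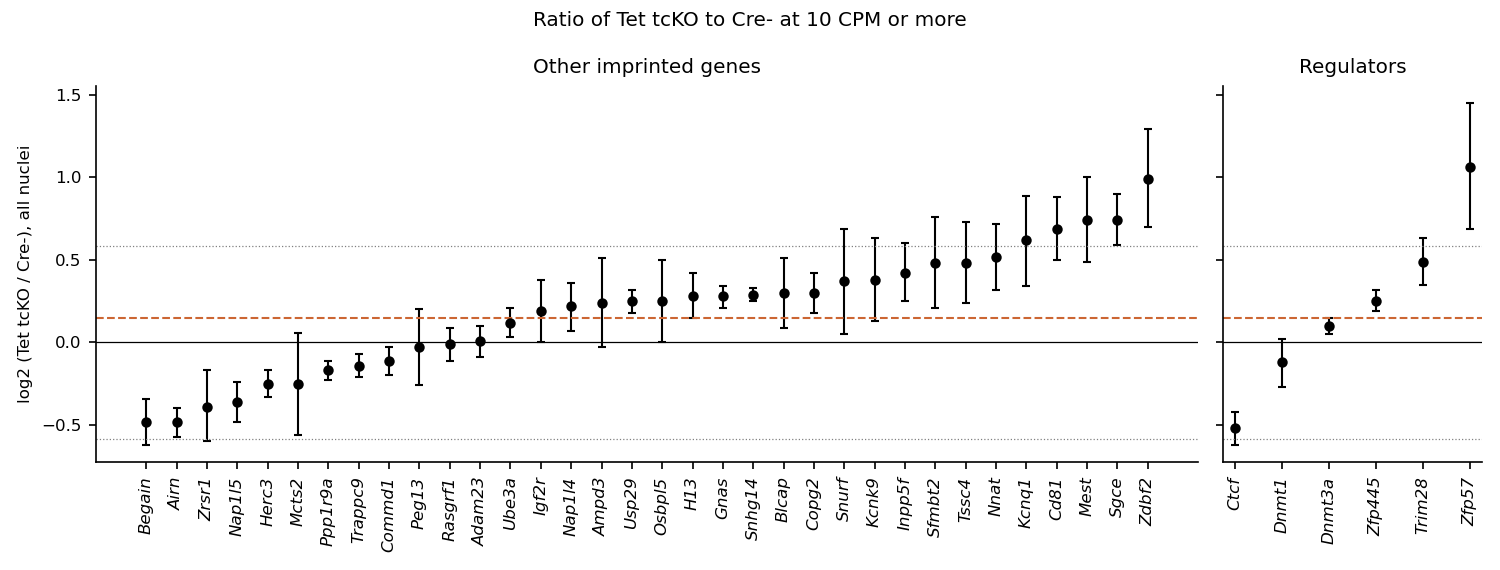
Log2 ratio of Tet tcKO to Cre- over all nuclei (y axis) for the 34 other imprinted genes and the 6 regulators at 10 CPM or more (x axis, in order of the ratio). Bars are exact 95% counting intervals, dotted lines mark 1.5-fold and the dashed line is the median of all genes (0.15). Zdbf2 (0.99) and Zfp57 (1.06) are the highest of their lists.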

How the data were processed

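Nuclei of 1 Cre- and 1 Tet tcKO library at P21 were profiled with a 3′ snRNA-seq kit. According to the labels and the study's methods, the authors ran pipseeker 3.3.0 against GRCm39, removed ambient RNA with CellBender (cell probability 0.99) and in Monocle3 retained nuclei between 500 and 10000 transcripts whose mitochondrial share was below 20%. The matrices deposited after these steps contain whole-number UMI counts. The deposited cell tables give counts of UMIs and genes, a mitochondrial percent, a size factor (a ratio that was not used here), the cluster and the cell type of each nucleus. The deposited gene table gives a signal per genotype, the mean over nuclei of counts per 10000, which served as a check of the matrices, and a count of nuclei per gene. No column was left unmapped. No annotation release for the counting was found in the labels or methods.

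For each population, the UMIs of a gene were added up and divided by the UMIs of all genes. A gene that reached 10 CPM in either library was called where the ratio was past 1.5-fold or 2-fold. In a ratio, a count of 0 was replaced by a floor of 3 counts, and a gene described singly got no ratio where the floor would turn the direction. Genes with 3 or fewer UMIs in both libraries got no ratio. Intervals were exact Poisson, Clopper-Pearson or conditional intervals at 95%, for counting error only. With 1 library per genotype no test was run. No doublet caller was run and no doublets were removed here, and leaving out the 5% of nuclei with most UMIs was an alternative. The annotation was checked against fixed marker lists, in 2 rankings of the genes (UMIs, and nuclei with the gene). The 10 genes, the lists of 59 imprinted genes and 11 regulators, and the markers were chosen with earlier results of these data known. All 10 genes are named, with other imprinted genes at 10 CPM or more and 1.5-fold or more (up to 6 in each direction), genes that share a locus with a member, all regulators and the 3 genes most like each member by class, of which the first is given for most. Python 3.11.15, numpy 2.4.6, scipy 1.17.1, pandas 2.3.3 and, for TMM and median-of-ratios factors, edgeR 4.0.16 in R 4.3.3 were used. The ratio step was tested on simulated data. Gene bounds came from GENCODE vM39 and sequences from RefSeq tables of GRCm38.p6. Impact has no sequence printed.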

Additional observations from a re-analysis of the deposited data

Results flagged for a closer look

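Meg3 had log2 ratios of opposite sign in different cell classes, with counting intervals on either side of 0. It was 0.06 (0.04 to 0.09) in photoreceptor clusters and 0.14 (0.10 to 0.18) in amacrine cells, against -0.30 (-0.32 to -0.28) in RGCs. The difference between classes was not tested, since each class has 1 library per genotype. The photoreceptor value was -0.02 over all nuclei annotated rods or cones, -0.08 with TMM factors, -0.08 with median-of-ratios factors and -0.45 when nuclei were counted in place of UMIs, so its sign depends on these choices. The amacrine value was above 0 under 8 of 9 alternatives and -0.54 when nuclei were counted. The RGC value stayed below 0 under 9 of 9, from -0.41 to -0.22, and was -0.20 and -0.19 in the 2 RGC clusters shared by the libraries. The amacrine value was 0.48 and 0.01 in the 2 shared amacrine clusters.

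The deposited gene table counts nuclei with each gene over a set larger than the 2 matrices. For Meg3 it lists 15580 nuclei, 1577 more than the 14003 nuclei with a Meg3 UMI in the matrices, a ratio of 1.11. Over the 10 members this ratio ran from 1.10 (Mirg) to 1.20 (Plagl1). The further nuclei were not analysed here.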

How the results depend on the processing

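Of 10 alternatives over all nuclei, Ndn and Plagl1 stayed higher in 10, from 0.68 to 1.07 and from 0.96 to 1.68, and Grb10 from 0.47 to 0.62. The number of members at 2-fold or more, 1 as reported, was 0 with nuclei of 1000 UMIs or more and 2 with the Cre- class shares in both libraries. The median of the members, 0.19 as reported, was 0.08 with TMM factors, 0.08 with median-of-ratios factors, 0.03 when nuclei with the gene were counted in place of UMIs and 0.04 with the Cre- class shares. The number of other imprinted genes at 1.5-fold or more, 5 as reported, was 9 with a filter of 1 CPM and 13 with no filter, which take in genes of few UMIs. The cause of the other shifts was not tested. Ndn in RGCs turned to -0.31 with nuclei thinned to 500 UMIs, where 4 and 4 nuclei held a UMI. Meg3 was -0.57 over all nuclei when nuclei were counted in place of UMIs, a measure that saturates when 7271 of 7357 and 6732 of 6766 nuclei hold the gene. Chosen after seeing the data, the settings on nuclei and depth left Mirg per Rian between -0.54 and -0.17 over all nuclei, -0.55 and -0.33 in photoreceptor clusters, -0.96 and -0.32 in amacrine cells and -0.55 and -0.10 in RGCs. Within RGC cluster 31, also chosen after seeing the data, Mirg per Rian turned to 0.42 and Rian per Meg3 to -0.26. With all nuclei annotated rods or cones, also chosen after seeing the data, Ndn was 1.22 and Plagl1 1.43. Ratios on a few UMIs, such as Ndn and Plagl1 in amacrine cells, are limited by depth. No paired analysis was possible because each genotype has 1 library, so the groups share fewer than 2 replicate numbers.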

Other observations

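Airn and Begain, named here after their values were seen, were the lowest of the other imprinted genes over all nuclei, each with a log2 ratio of -0.48. Airn, the noncoding RNA antisense to Igf2r, was 201 CPM in Cre- and 144 in Tet tcKO. In photoreceptor clusters it was 235 and 135 CPM, at -0.80 (-0.92 to -0.68), while Igf2r was 35.7 and 41.5 CPM, at 0.22 (-0.05 to 0.48). In amacrine cells Airn was at 0.22 (-0.21 to 0.67) and in RGCs at -0.21 (-0.56 to 0.14). Begain, which lies in the same imprinted region as Meg3, was 68.5 and 49.1 CPM over all nuclei and had -0.44 (-0.67 to -0.22) in photoreceptor clusters, where genotype and photoreceptor type cannot be told apart.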
